A study of Mus musculus with 16 samples.

Results

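Knee joints hold macrophages that settled in the tissue before injury, and injury brings in others. 8 genes that mark resident macrophages, or macrophages activated by the type 2 cytokines IL-4 and IL-13, were described across the 4 groups of the experiment: Mrc1, Lyve1, Folr2, Vsig4, Timd4, Arg1, Chil3 and Retnla. They were chosen by name, and all 8 were among the 13733 genes of the deposited table and among the 13173 genes that passed the filter on low values. 7 days after injury Mrc1 and Folr2 rose in WT and in Trem2-/- joint cells, Chil3 and Retnla fell in both, and Lyve1 passed the test in neither. In the fit of all 4 groups no member passed the test of Trem2-/- against WT mice at either time. With the D7 mice alone in the fit Mrc1, Folr2, Timd4 and Chil3 were called lower in Trem2-/- mice, as were 6.79% of all genes. None of these 4 had an adjusted p under 0.05 there (lowest 0.122, for Folr2, limma).

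The 16 libraries are bulk RNA-seq of knee joint cells, from 4 mice in each group. WT D0 and WT D7 are C57BL/6J mice that were uninjured or were taken 7 days after 1 overload of the tibia that tears the anterior cruciate ligament. Trem2-/- D0 and Trem2-/- D7 are mice of the line C57BL/6J-Trem2em2Adiuj/J, in which both copies of Trem2, a lipid-sensing receptor of macrophages, carry a germline knockout allele in every cell and not in macrophages alone. The study's methods describe male mice of 10 weeks at injury and cells released from joints by collagenase digestion, and do not say whether these cells were enriched for leukocytes. Part of the sample labels instead names an age of 16 weeks, a diabetic condition, homogenized tissue and another library kit, and the groups used here rest on genotype and injury state, on which both sources are the same.

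Macrophages that live in a tissue for long carry scavenging receptors. Mrc1 (CD206) binds mannose-bearing glycoproteins, Lyve1 binds hyaluronan, Folr2 binds folate, Vsig4 is a complement receptor of the immunoglobulin family, and Timd4 binds phosphatidylserine on dying cells. IL-4 and IL-13 act through the kinases Jak1, Jak3 and Tyk2 on the transcription factor Stat6, and macrophages that receive this signal make arginase 1 (Arg1), which splits arginine into ornithine and urea, the chitinase-like lectin Ym1 (Chil3) and the secreted protein Fizz1 (Retnla). These genes are not private to macrophages: Lyve1 and Mrc1 are also made by lymphatic and sinusoidal endothelium, Chil3 by neutrophils and their precursors, and Retnla by fat cells and eosinophils. The marks define no macrophage class by themselves.

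On GRCm38 the GENCODE M21 annotation places Mrc1 at chr2:14229392-14332057 (plus strand), Lyve1 at chr7:110850607-110863239 (minus strand), Folr2 at chr7:101839988-101857194 (minus strand) and Vsig4 at chrX:96247203-96293438 (minus strand). It places Timd4 at chr11:46810800-46844332 (plus strand), Arg1 at chr10:24915221-24927484 (minus strand), Chil3 at chr3:106147554-106167564 (minus strand) and Retnla at chr16:48842551-48844461 (plus strand). All 8 are protein-coding genes.

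The stretches before the transcription starts of both members that rose and both that fell in each genotype are shown because these pairs carry the injury result. The pairs share some of the letters searched for, and whether the letters bear on the direction of change was not tested. They were read from the RefSeq promoter table on GRCm38.p6, which held 6 of the 8 members with 7 promoters. It was searched over the 250 bases before each start on both strands for 5 sets of letters: TTCNNNNGAA (the spacing bound by Stat6), TTCNNNGAA (the spacing of other STAT factors), GAGGAA (a PU.1-type core), TTGCNNAA (C/EBP-type) and TGCTGA (a MAF half-site). Bases that fall inside the GENCODE gene were left out of the printed run, and capitals mark the matches. The Mrc1 run is chr2:14229164-14229391 (plus strand), the Folr2 run chr7:101857195-101857440 (minus), the Chil3 run chr3:106167565-106167814 (minus) and the Retnla run chr16:48842359-48842550 (plus).
Mrc1: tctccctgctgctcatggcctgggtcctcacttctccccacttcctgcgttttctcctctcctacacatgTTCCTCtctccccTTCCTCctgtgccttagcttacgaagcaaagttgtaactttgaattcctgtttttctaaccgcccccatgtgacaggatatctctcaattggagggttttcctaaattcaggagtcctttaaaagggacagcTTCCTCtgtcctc
Folr2: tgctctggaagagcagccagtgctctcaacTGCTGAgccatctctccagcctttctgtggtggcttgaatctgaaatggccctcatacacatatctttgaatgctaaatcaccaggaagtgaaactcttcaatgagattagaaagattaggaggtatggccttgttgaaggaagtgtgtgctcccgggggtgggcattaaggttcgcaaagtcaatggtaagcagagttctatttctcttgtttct
Chil3: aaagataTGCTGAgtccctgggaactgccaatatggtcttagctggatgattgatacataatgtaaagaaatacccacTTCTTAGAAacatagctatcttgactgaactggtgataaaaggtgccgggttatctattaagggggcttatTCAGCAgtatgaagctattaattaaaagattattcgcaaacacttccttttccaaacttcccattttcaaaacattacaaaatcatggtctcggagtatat
Retnla: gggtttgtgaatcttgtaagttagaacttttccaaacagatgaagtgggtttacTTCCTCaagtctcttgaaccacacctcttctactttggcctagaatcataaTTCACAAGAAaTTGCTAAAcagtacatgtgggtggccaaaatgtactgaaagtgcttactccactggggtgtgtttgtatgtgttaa

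Of the 6 members matched, Retnla was the 1 with the Stat6 spacing, beginning 145 bases before its start, with a C/EBP-type match that begins 134 bases before the start. Chil3 held the shorter STAT spacing, 172 bases before its start. The Stat6 spacing stood in 5.85% of the 32851 promoters of the table, the shorter STAT spacing in 7.02% and the C/EBP-type letters in 9.56%. PU.1-type letters, present in 23.3% of promoters, stood 3 times before Mrc1, 2 times before Vsig4 and once before Retnla. The MAF half-site, present in 16.1% of promoters, stood in both Folr2 promoters and before Timd4 and Chil3. For Retnla it stood before the RefSeq start but inside the GENCODE gene, outside the printed run. The Stat6 and C/EBP-type matches of Retnla lie next to each other without overlap. Such matches are a description of these letters and not of binding. Lyve1 and Arg1 are named only.

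Levels are given in CPM, read counts brought to a common library size after TMM scaling of library sizes, as the authors deposited them. Differences were tested with limma on log2(CPM + 1) in 1 fit of all 16 libraries. A gene was called when its unadjusted p was under 0.05 and its level changed by more than 25% on that scale. The Benjamini-Hochberg adjusted p over all genes is given beside it. Adding 1 understates the change of genes near or under 1 CPM, which here are Timd4, Arg1 and Retnla. Each library held between 11567073 and 32867818 reads on genes of the table, and 3 reads equal 0.101 to 0.250 CPM. In bulk samples fewer cells of a type and less RNA per cell cannot be told apart.

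Trem2 was measured first as a check of the labels. Its level was 2.51 to 5.61 CPM in WT D0 mice and 0.948 to 2.68 CPM in Trem2-/- D0 mice, so the highest knockout value lay above the lowest WT value. At D7 it was 10.7 to 22.5 CPM in WT and 3.42 to 4.84 CPM in Trem2-/- mice, with no overlap. Reads on Trem2 thus remained in the knockout libraries. Whole-table shifts stand beside the members in every injury comparison. The 6 pan-leukocyte genes (among them Ptprc, which encodes CD45) were called lower in all 6 cases in WT and in Trem2-/- mice at D7, while 4 of 6 joint tissue genes in WT and 6 of 6 in Trem2-/- mice were called higher (Col2a1, Acan and Col1a1 first). Between genotypes at D7 all 6 pan-leukocyte genes were called lower in Trem2-/- mice, and 0 of 6 joint tissue genes were called. Whether these shifts contribute to the members' differences was not tested.

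**Figure D1:**
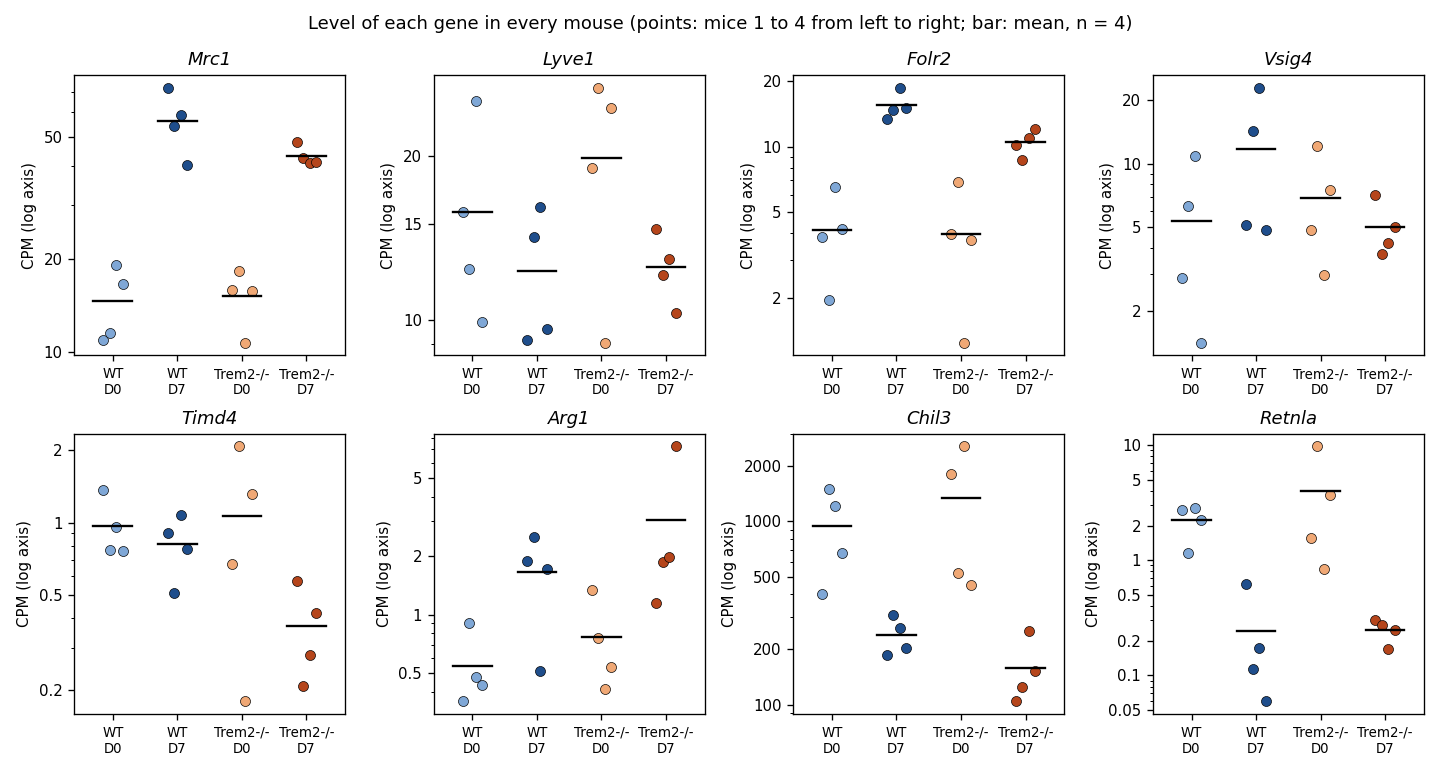
Level of each of the 8 genes in every mouse, in CPM on a log axis with its own range per panel, by group. Points are mice 1 to 4 from left to right and the bar is the group mean (n = 4). Mrc1 and Folr2 sit higher and Chil3 and Retnla lower in every D7 mouse than in any D0 mouse of the same genotype, while Lyve1 and Vsig4 overlap.

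Among the receptors, Mrc1 had the smallest error. In WT D0 mice it was at 10.9, 11.5, 19.2 and 16.6 CPM, and in WT D7 mice at 72.2, 54.0, 58.7 and 40.5 CPM. In Trem2-/- D0 mice it was at 15.9, 18.3, 10.7 and 15.8 CPM, and in Trem2-/- D7 mice at 48.1, 42.6, 40.9 and 41.4 CPM. Every injured mouse was above every uninjured one, and the Trem2-/- D7 mice lay at the lower edge of the WT D7 mice. The mean rose from 14.6 ± 4.00 to 56.4 ± 13.1 CPM in WT mice (SD, n = 4), a ratio of 3.87, with a log2 difference of 1.89 (SE 0.20) and an adjusted p of 0.000141 in limma. In Trem2-/- mice it rose from 15.2 ± 3.22 to 43.2 ± 3.30 CPM, with a log2 difference of 1.47 and an adjusted p of 4.6e-05 in limma.

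Folr2, the folate receptor, followed the same course at a lower level. It was at 3.82, 1.96, 6.54 and 4.19 CPM in WT D0 mice and at 13.4, 14.8, 18.7 and 15.1 CPM in WT D7 mice. It was at 3.97, 6.89, 1.253 and 3.71 CPM in Trem2-/- D0 mice and at 10.2, 8.68, 11 and 12 CPM in Trem2-/- D7 mice. The 4 groups fall in 3 levels, both D0 groups together, then Trem2-/- D7, then WT D7, and neither step overlaps. The log2 difference by injury was 1.76 (SE 0.31, adjusted p = 0.00175, limma) in WT and 1.34 (adjusted p = 0.00238, limma) in Trem2-/- mice. The Folr2 values are uncertain in 1 respect: 975 of its 1546 exon bases lie opposite an exon of Gm10602, and 47.1% of its 75-base stretches are also found there on the other strand. The library kit named in the study's methods keeps strand, the sample labels name another kit that does not, and whether the counting used strand is not given in the sources used here. Reads of Folr2 and Gm10602 may thus not have been told apart.

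Lyve1, the hyaluronan receptor often used with Folr2 to name resident macrophages, did not pass the test in either genotype. It was at 15.8, 12.4, 25.2 and 9.91 CPM in WT D0 mice and at 9.19, 14.2, 16.1 and 9.62 CPM in WT D7 mice. In Trem2-/- mice it was at 18.9, 26.7, 9.07 and 24.5 CPM at D0 and at 14.7, 12.1, 12.9 and 10.3 CPM at D7. The D0 mice were more scattered than the D7 mice in both genotypes (CV 42.4% and 39.7% at D0, 27.8% and 14.6% at D7). The log2 difference was -0.30 in WT (95% interval -0.954 to 0.355) and -0.53 in Trem2-/- mice (-1.19 to 0.122), so both intervals exclude a rise of the size seen for Mrc1 and Folr2. Without Trem2-/- D0 replicate 3 Lyve1 was called lower in Trem2-/- mice (-0.85).

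Vsig4, the complement receptor, varied most among the receptors that were well above 1 CPM. It was at 2.87, 6.31, 10.9 and 1.42 CPM in WT D0 mice and at 5.15, 14.3, 23.0 and 4.87 CPM in WT D7 mice. In Trem2-/- mice it was at 4.84, 12.1, 2.98 and 7.49 CPM at D0 and at 7.12, 3.72, 4.20 and 5.0 CPM at D7. Within each group the highest mouse was 1.91 to 7.70 times the lowest, and all groups overlap. The log2 difference by injury was 1.01 in WT (95% interval -0.0955 to 2.11, adjusted p = 0.149, limma) and -0.28 in Trem2-/- mice (-1.38 to 0.825). Vsig4 had the lowest p of the members in the interaction of genotype and injury (-1.29, 95% interval -2.85 to 0.274, adjusted p = 0.662, limma). It was called higher in WT when WT D0 replicate 3 (1.39), WT D7 replicate 1 (1.28) or WT D7 replicate 4 (1.3) was left out, and without WT D7 replicate 3, the highest mouse, the difference was 0.62 and was not called.

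Timd4, the phosphatidylserine receptor, was close to the filter, which it passed with 4 libraries at 1 CPM or more. It was at 1.37, 0.765, 0.957 and 0.763 CPM in WT D0 mice, from 14 to 23 reads each, and at 0.905, 0.51, 1.07 and 0.772 CPM in WT D7 mice. In Trem2-/- mice it was at 0.67, 2.08, 0.179 and 1.31 CPM at D0, the lowest from 3 reads, and at 0.571, 0.207, 0.28 and 0.42 CPM at D7. The Trem2-/- D0 mice therefore spanned both sides of every other group. The Trem2-/- D7 mice were called lower than Trem2-/- D0 mice (-0.51, unadjusted p = 0.0437, adjusted p = 0.0758, limma), and this call was lost in 5 of the 8 fits that left out 1 of these mice. These were the fits without Trem2-/- D0 replicate 2 (-0.28) or 4 and without Trem2-/- D7 replicate 2, 3 or 4. It was also lost with the replicate number as a block, with a pseudocount of 0.1 or 5, with the Trem2-/- mice alone in the fit, with voom on the recovered reads and with a fold of over 1.5 required.

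Per kb of exon, a scale on which levels of different genes can be compared, the receptors changed order. At WT D0 Lyve1 was first (5.43 ± 2.30 CPM per kb, SD, n = 4), followed by Vsig4 (3.62 ± 2.84), Folr2 (2.67 ± 1.22) and Mrc1 (2.29 ± 0.628), which do not differ beyond their spread, and Timd4 was last (0.444 ± 0.133). At WT D7 the order was Folr2 (10.0 ± 1.45 CPM per kb), Mrc1 (8.85 ± 2.05), Vsig4 (7.98 ± 5.83), Lyve1 (4.21 ± 1.17) and Timd4 (0.375 ± 0.109). The first pair and Vsig4 do not differ beyond their spread, and Lyve1 lay below Folr2 and Mrc1.

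The IL-4 and IL-13 induced effectors went in different directions. Chil3 was by far the most abundant member and fell. It was at 402, 1501, 1208 and 674 CPM in WT D0 mice and at 186, 308, 261 and 203 CPM in WT D7 mice. It was at 1819.8, 523, 2569 and 447 CPM in Trem2-/- D0 mice and at 104, 125, 253 and 153 CPM in Trem2-/- D7 mice. Every D7 mouse was below every D0 mouse of its genotype, and the Trem2-/- D0 mice split into a high and a low pair. The means at D0 were 3.95 times those at D7 in WT and 8.44 times in Trem2-/- mice, with log2 differences of -1.83 (adjusted p = 0.0191) and -2.76 (adjusted p = 0.000514, limma). Of the 75-base stretches of Chil3, 13% are shared with its paralog Chil4 or with Gm6522, so a small part of its reads could be split.

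Retnla, the resistin-like protein, fell from a low level to near the limit of detection. It was at 2.75, 1.15, 2.82 and 2.23 CPM in WT D0 mice and at 0.627, 0.11, 0.17 and 0.0594 CPM in WT D7 mice, the latter from 17 reads in all. It was at 1.55, 9.73, 0.835 and 3.71 CPM in Trem2-/- D0 mice and at 0.30, 0.28, 0.168 and 0.25 CPM in Trem2-/- D7 mice, from 19 reads. No D7 mouse reached the lowest D0 mouse of its genotype. The log2 differences were -1.37 (adjusted p = 0.0192) in WT and -1.65 (adjusted p = 0.00258, limma) in Trem2-/- mice. The ratio of the means at D0 to those at D7 was 9.21 in WT and 15.9 in Trem2-/- mice, and the second rests in part on Trem2-/- D0 replicate 2.

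Arg1, arginase 1, was scarce in every group. It was at 0.359, 0.908, 0.48 and 0.44 CPM in WT D0 mice and at 1.88, 2.49, 0.517 and 1.72 CPM in WT D7 mice. It was at 1.34, 0.76, 0.418 and 0.54 CPM in Trem2-/- D0 mice and at 1.14, 1.86, 1.96 and 7.26 CPM in Trem2-/- D7 mice. WT D7 replicate 3 stayed at the D0 level, and Trem2-/- D7 replicate 4 stood well above the rest. The Trem2-/- groups touch, since Trem2-/- D7 replicate 1 was below Trem2-/- D0 replicate 1. Arg1 was called higher in Trem2-/- mice (1.01, adjusted p = 0.0223, limma), while in WT mice the log2 difference of 0.73 (95% interval -0.00641 to 1.46, adjusted p = 0.12, limma) was not called. In WT it was called without WT D0 replicate 2 (0.83) or WT D7 replicate 3 (0.98), with a pseudocount of 0.1 (1.33), with edgeR on the recovered reads (1.54) and, at the same difference, with the WT mice alone in the fit. The rise in Trem2-/- mice was 0.60 without Trem2-/- D7 replicate 4 and was still called.

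In all, 4 members were called by injury in WT mice. 2 were higher, where 19.3% of all genes tested were called higher, and 2 were lower, where 18.2% were. In Trem2-/- mice 6 were called, 3 higher against 26.5% of all genes and 3 lower against 27.9%. An adjusted p under 0.05 was reached by 4 members in WT, where 28.5% of all genes reached it, and by 5 in Trem2-/- mice, where 53.2% did. These counts are not far from the shares of the whole table, so the number of members called is no result about the members. The same 4 members, Mrc1 and Folr2 above and Chil3 and Retnla below, had no overlap of D7 and D0 mice in either genotype. Groups did not overlap upwards for 12.9% of all genes in WT and 26.1% in Trem2-/- mice, and downwards for 9.34% and 26.3%.

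**Figure D2:**
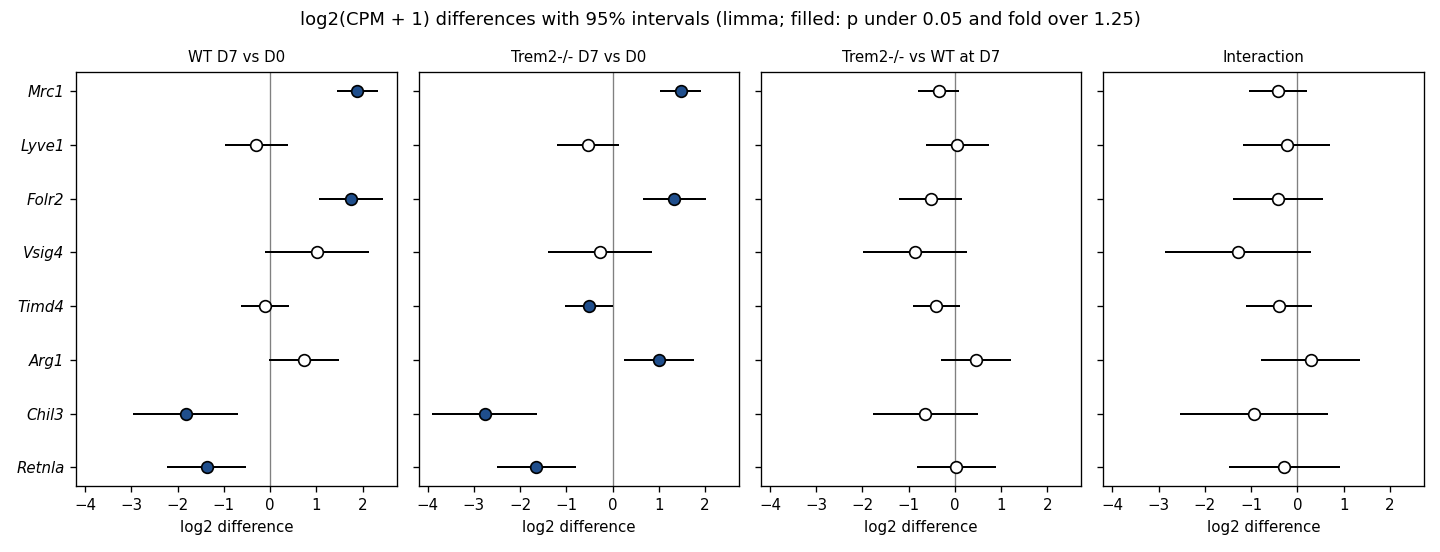
Difference of each gene on the log2(CPM + 1) scale with its 95% interval from limma, for injury in WT mice, injury in Trem2-/- mice, Trem2-/- against WT at D7, and the interaction. Filled points were called: 4 genes in WT, 6 in Trem2-/- mice and 0 in the other panels.

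Trem2-/- and WT mice were compared at D7 because the study asks what Trem2 does after joint injury. None of the 8 members was called, where 1.18% of all genes were called higher and 4.53% lower in Trem2-/- mice, and no gene of the table had an adjusted p under 0.05 (958 had an unadjusted p under 0.05). The log2 difference was -0.35 for Mrc1 (95% interval -0.772 to 0.0756), 0.05 for Lyve1 (-0.603 to 0.705), -0.53 for Folr2 (-1.19 to 0.14) and -0.87 for Vsig4 (-1.97 to 0.235). It was -0.40 for Timd4 (-0.896 to 0.0876), 0.46 for Arg1 (-0.273 to 1.2), -0.64 for Chil3 (-1.76 to 0.469) and 0.03 for Retnla (-0.805 to 0.860). Folr2 was the 1 member whose groups did not overlap, with all Trem2-/- mice lower, at an exact two-sided permutation p of 0.0286, the smallest that 4 against 4 mice can give. Groups did not overlap in this direction for 4.78% of all genes and in the other for 3.55%.

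The result at D7 depended on which libraries gave the spread. With WT D7 and Trem2-/- D7 mice alone in the fit, Mrc1, Folr2, Timd4 and Chil3 were called lower in Trem2-/- mice, with the same differences as above. In that fit 6.79% of all genes were called lower and 3.58% higher, and the adjusted p in limma was 0.315 for Mrc1, 0.122 for Folr2, 0.265 for Timd4 and 0.277 for Chil3. At D0 none of the members was called, where 0.782% of all genes were called higher and 1.37% lower, and groups did not overlap for 0.44% upwards and 0.539% downwards. The intervals at D0 were wide, from -0.824 to 1.4 for Chil3 and from -0.355 to 0.493 for Mrc1. In the interaction none was called, where 2.77% of all genes were called higher and 5.02% lower.

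To see whether members changed beyond general macrophage genes, each was set against the mean of 9 pan-macrophage genes (Adgre1, Cd68, Csf1r, Mertk, Fcgr1, C1qa, C1qb, C1qc and Aif1) in the same mouse. Their summed level was 242 to 392 CPM in WT D0, 512 to 691 in WT D7, 303 to 342 in Trem2-/- D0 and 393 to 464 in Trem2-/- D7 mice, and no gene of this list was at 0 in any library. In WT mice 7 of 9 were called higher at D7 (C1qa, C1qb and C1qc, subunits of the complement starter C1q, first). In Trem2-/- mice 4 were higher, and Cd68, a lysosomal glycoprotein, was lower. In the comparison of genotypes at D7, Cd68, Csf1r (the receptor of the macrophage growth factor M-CSF) and Adgre1 (the antigen F4/80) were called lower without Trem2.

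Against this mean Mrc1 still rose, by 0.767 on the log2 scale in WT and 0.71 in Trem2-/- mice (exact permutation p = 0.0286 in both, the smallest possible). Folr2 rose by 0.635 in WT (exact permutation p = 0.0286) and differed by 0.576 in Trem2-/- mice (exact permutation p = 0.0571). The relative level of Folr2 in WT did not pass the test against Adgre1 alone (0.322, exact permutation p = 0.371) or with a pseudocount of 5 (0.252, exact permutation p = 0.171). Lyve1 fell relative to them (-1.42 in WT and -1.29 in Trem2-/- mice), and so did Timd4 (-1.24 and -1.27), each at an exact permutation p of 0.0286. Of these differences -0.30 in WT and -0.53 in Trem2-/- mice were Lyve1's own, and -0.11 and -0.51 were Timd4's own. The rest was the change of the macrophage genes. The share of all genes that pass on this scale was not computed. Vsig4 fell relative to them in Trem2-/- mice (-1.04, exact permutation p = 0.0286) and differed by -0.113 in WT (exact permutation p = 0.886). Against Adgre1 alone Vsig4 (-1.10), and with a pseudocount of 0.1 Timd4 (-1.84), did not pass in Trem2-/- mice, each at an exact permutation p of 0.0571.

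Chil3 fell against macrophage genes (-2.95 in WT and -3.52 in Trem2-/- mice), as did Retnla (-2.49 and -2.41), each at an exact permutation p of 0.0286. For Arg1 the differences were -0.393 and 0.253, with exact permutation p of 0.371 and 0.686. With a pseudocount of 5 the difference of Arg1 in WT was -0.68 (exact permutation p = 0.0286). Between genotypes at D7 no member passed the test on this scale. The value was 0.0199 for Mrc1 (exact permutation p = 0.886) and -0.158 for Folr2 (exact permutation p = 0.314), whose groups now overlapped.

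**Figure D3:**
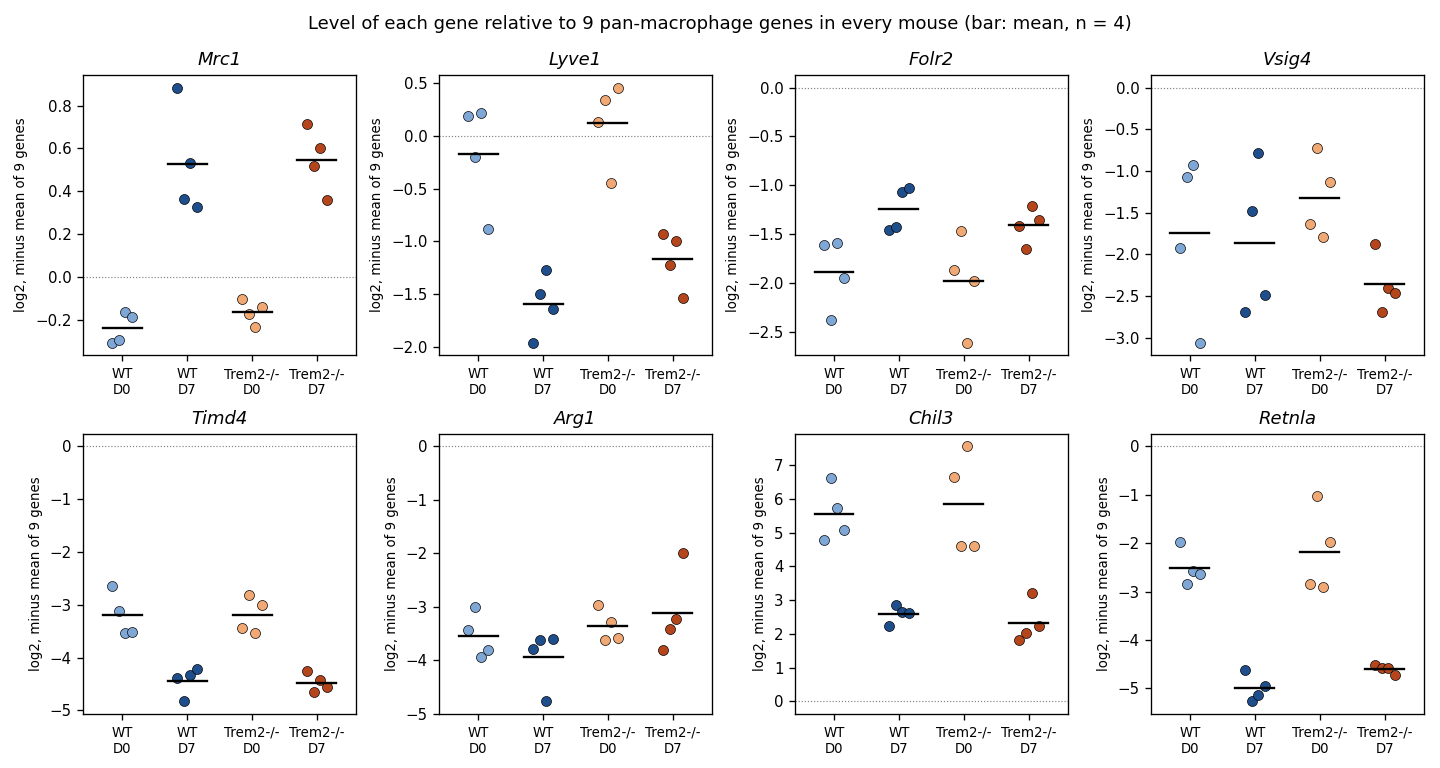
Level of each of the 8 genes minus the mean of 9 pan-macrophage genes in the same mouse, on the log2(CPM + 1) scale, by group, with the group mean as a bar (n = 4). In both genotypes Mrc1 lies higher at D7 than at D0 and Lyve1, Timd4, Chil3 and Retnla lie lower, with no overlap. A rise of the reference alone lowers the relative level of every gene, and the share of all genes without overlap was not computed on this scale.

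Markers of other cells that make these genes moved with some members. All 11 neutrophil genes were called lower at D7 in both genotypes, and their summed level was 14834 to 34331 CPM in WT D0, 4967 to 14781 in WT D7, 15507 to 47554 in Trem2-/- D0 and 4501 to 7852 in Trem2-/- D7 mice. Their median log2 difference was -1.42 in WT and -2.26 in Trem2-/- mice, beside -1.83 and -2.76 for Chil3 and medians of -0.0446 and -0.0422 over all genes. Relative to the mean of these 11 genes, a reference added after the data were seen, Chil3 differed by -0.433 in WT and -0.515 in Trem2-/- mice (exact permutation p = 0.2 in both). Retnla differed by 0.031 and 0.597 (exact permutation p = 1 and 0.514). Relative to the 6 pan-leukocyte genes, also added later, Lyve1 was higher at D7 in Trem2-/- mice (1.26, exact permutation p = 0.0286), so its direction turns with the reference.

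Chil3 and the neutrophil genes also went together from mouse to mouse within groups. Deviations of log2 levels from group means over the 16 libraries gave Pearson's r = 0.878 and Spearman's rho = 0.876, and r = 0.826 without the 2 libraries farthest from the median. Chil3 also went with the eosinophil genes (r = 0.758, rho = 0.729) and the pan-leukocyte genes (r = 0.71, rho = 0.797), so this likeness is not particular to neutrophil genes. The part of any of these cells in the level of Chil3 was not tested. These points share library and depth. The 3 genes most like Chil3 of the 10552 genes compared were Gca, Ltf and Itgb2l, each with r = 0.977, and Ltf encodes lactoferrin of neutrophil granules. In Trem2-/- D0 mice Ltf was at 3552, 1402, 5072 and 1041 CPM, the same order of mice as for Chil3.

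**Figure D4:**
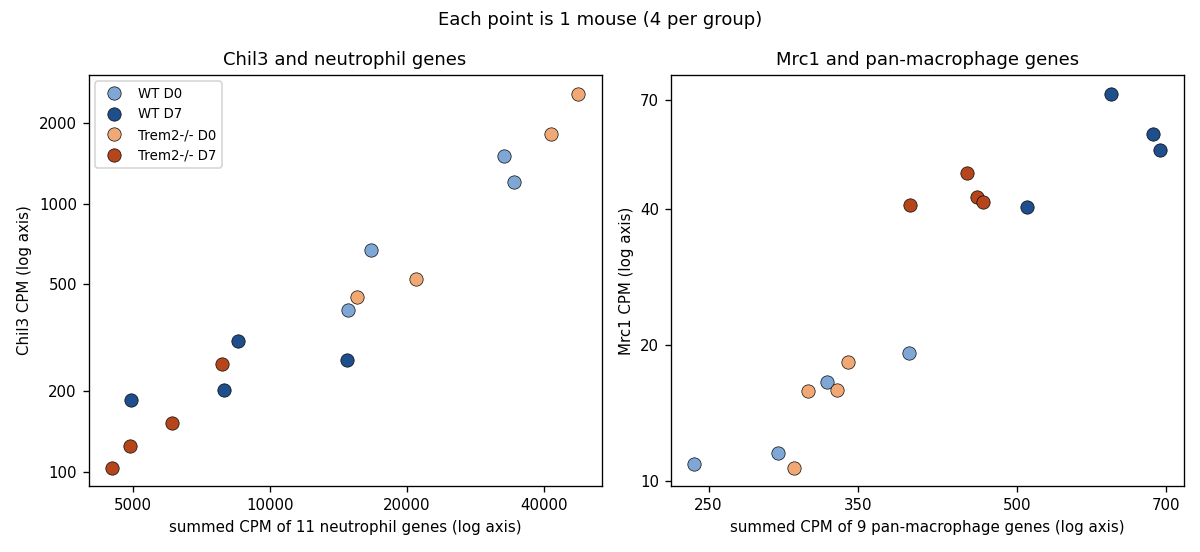
Left, Chil3 against the summed level of 11 neutrophil genes, and right, Mrc1 against the summed level of 9 pan-macrophage genes, in CPM on log axes, each point 1 mouse (4 per group). Chil3 runs with the neutrophil genes within and between groups, and Mrc1 lies at 40.5 to 72.2 CPM over macrophage sums of 512 to 691 CPM in WT D7 mice and at 40.9 to 48.1 CPM over sums of 393 to 464 CPM in Trem2-/- D7 mice.

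Eosinophil genes were called lower in 5 of 5 cases in both genotypes, with summed levels of 64.1 to 510 CPM at WT D0 and 30.6 to 72.5 CPM at WT D7. Of the fat cell genes 5 of 6 were found and 3 tested, and Cfd and Adipoq were called lower in WT and Fabp4 in Trem2-/- mice. In Trem2-/- mice Fabp4 was at 343 to 1114 CPM and Adipoq, not called there, at 0.689 to 3.55 CPM. These values stand beside the fall of Retnla, and their part in it was not tested. From mouse to mouse within groups Retnla ran against the eosinophil genes (Pearson's r = -0.618, rho = -0.438, 16 libraries). It also ran against the neutrophil genes (r = -0.59, rho = -0.618). Retnla went with the fat cell genes (r = 0.463, rho = 0.618), the pan-macrophage genes (r = 0.622, rho = 0.476) and the other resident macrophage genes (r = 0.622, rho = 0.647). None of the 4 lymphatic genes tested and none of the 5 blood and sinusoidal endothelial genes was called in any injury comparison. Their summed levels overlapped between all groups (lymphatic, 54.7 to 140 CPM at WT D0 and 62.3 to 93.6 CPM at WT D7). The lymphatic marker Prox1, at 1.61 to 4.72 CPM over all mice, was present in every library, and the part of endothelium in the levels of Lyve1 and Mrc1 was not tested.

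The other genes of resident macrophages followed Mrc1 and Folr2 in part. Of 14 genes listed 11 were found and 10 tested, and 5 were called higher by injury in each genotype: Cbr2, Stab1, Maf, F13a1 and Pf4. Of all genes 19.3% were called higher in WT and 26.5% in Trem2-/- mice. The median log2 difference was 0.455 in WT and 0.552 in Trem2-/- mice. The scavenger receptor Stab1 was at 57.9 to 115 CPM in WT D0 and 155 to 224 CPM in WT D7 mice (1.38, adjusted p = 0.00145, limma). The carbonyl reductase Cbr2 was at 3.49 to 8.29 CPM and 14.8 to 25.3 CPM in these groups (1.75, adjusted p = 0.0015, limma). Clec10a, a lectin receptor that is also on the list of IL-4 and IL-13 induced genes, was called lower in Trem2-/- mice (-1.05, adjusted p = 0.00596, limma). Cd163, the hemoglobin scavenger receptor, was called lower without Trem2 at D7 (-0.80, unadjusted p = 0.0435, adjusted p = 0.668, limma), with 3.59 to 5.58 against 4.51 to 10.7 CPM.

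The ligands of the IL-4 pathway were low and fell. Il4 was at 0.478 to 2.10 CPM in WT D0 and 0.119 to 0.418 CPM in WT D7 mice (-0.82, adjusted p = 0.016, limma). Il13 was at 0.896 to 1.54 CPM and 0.178 to 0.696 CPM in these groups (-0.71, adjusted p = 0.00669, limma). Both were also called lower in Trem2-/- mice. Of the receptors, Il13ra1 was called higher in both genotypes (0.60, adjusted p = 0.0296, in WT and 0.79, adjusted p = 0.00275, in Trem2-/- mice, limma), and Il4ra was called in neither, at 206 to 374 CPM in WT D0 and 216 to 325 CPM in WT D7 mice. Stat6 was called lower in Trem2-/- mice (-0.76, adjusted p = 6.11e-05, limma) and had -0.23 in WT (adjusted p = 0.12). The difference between these changes was called, with no support after adjustment (interaction -0.53, adjusted p = 0.579, limma). In all, 9 of 10 genes of this list were found and tested, 1 was higher and 2 lower in WT, and 1 was higher and 4 lower in Trem2-/- mice, beside 19.3% and 18.2% of all genes in WT and 26.5% and 27.9% in Trem2-/- mice.

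Of 17 other genes that IL-4 and IL-13 induce, 13 were tested. In WT mice 2 were called higher and 4 lower, where 19.3% of all genes were called higher and 18.2% lower, and in Trem2-/- mice 2 were higher and 8 lower, where 26.5% and 27.9% were. The median log2 difference was -0.344 in WT and -0.899 in Trem2-/- mice, beside -0.0446 and -0.0422 over all genes. Alox15, a lipoxygenase, was at 4.30 to 10.8 CPM in WT D0 and 1.247 to 3.76 CPM in WT D7 mice (-1.33, adjusted p = 0.0139, limma). The transcription factor Irf4 was lower in both genotypes (-0.999 in WT, adjusted p = 0.0145, and -1.75 in Trem2-/- mice, adjusted p = 0.00011, limma). Ccl22, a chemokine, was higher in both (0.82, adjusted p = 0.0358, and 1.30, adjusted p = 0.00108, limma). The cells behind these changes cannot be told in bulk samples, and the part of leukocytes other than macrophages was not tested.

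Around arginase, 11 of 12 genes were found and tested, 3 higher and 4 lower in WT and 3 higher and 5 lower in Trem2-/- mice. Over all genes these shares were 19.3% and 18.2% in WT and 26.5% and 27.9% in Trem2-/- mice. Slc7a2, an arginine transporter, was at 18.4 to 69.4 CPM in WT D0 and 76.3 to 119 CPM in WT D7 mice (1.53, adjusted p = 0.00409, limma) and rose by 2.62 in Trem2-/- mice (adjusted p = 2.49e-05, limma). Srm, spermidine synthase, rose by 0.59 in WT and 1.07 in Trem2-/- mice (adjusted p = 0.016 and 9.65e-05, limma). Arg2, the mitochondrial arginase, went the other way from Arg1, with 75.2 to 109 CPM in WT D0 and 26.3 to 100 CPM in WT D7 mice (-0.83, unadjusted p = 0.0146, adjusted p = 0.051, limma) and -1.83 in Trem2-/- mice (adjusted p = 0.000177, limma). In every group the lowest Arg2 value was above the highest Arg1 value, in CPM without regard to length.

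The paralogs of the effectors were compared because families of chitinase-like and resistin-like proteins are easily confused. Of 7 listed 4 were found and 3 tested. Retnlg, a neutrophil relative of Retnla, fell in both genotypes (-1.29, adjusted p = 0.0171, in WT and -2.14, adjusted p = 0.000218, in Trem2-/- mice, limma), as did Chil1, a chitinase-like lectin (-1.08, adjusted p = 0.0447, and -1.65, adjusted p = 0.00207, limma). Chit1, a true chitinase of macrophages, rose in WT mice (1.32, adjusted p = 0.0145, limma) and had -0.08 in Trem2-/- mice. The interaction for Chit1 was -1.4 (adjusted p = 0.579, limma).

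Uninjured mice of both genotypes varied widely in these genes. The CV was 27.5% (Mrc1) to 78.5% (Vsig4) in WT D0 and 21.2% (Mrc1) to 102% (Retnla) in Trem2-/- D0 mice. Some members varied as widely after injury, with a CV of 14.5% (Folr2) to 107% (Retnla) in WT D7 and 7.63% (Mrc1) to 92.5% (Arg1) in Trem2-/- D7 mice. In Trem2-/- D0 mice Mrc1, Lyve1, Folr2, Vsig4, Timd4 and Retnla, 6 of the 8 members, were highest in replicate 2, and 7 of 8 were lowest in replicate 3, where Chil3 was highest. In WT D0 mice 5 of the 8 were highest in replicate 3. Trem2-/- D0 replicate 3 decides several values between genotypes at D0: without it Lyve1 was called higher in Trem2-/- mice (0.60), and without Trem2-/- D0 replicate 2 the difference of Retnla turned from 0.31 to -0.17. Without WT D0 replicate 1 the differences of Mrc1 (-0.047), Timd4 (0.085) and Chil3 (-0.0638) between genotypes at D0 changed sign. Replicates of a group have no order and no batch is named for them.

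Over deviations from group means in the 16 libraries, Lyve1 went with Vsig4 (r = 0.822, rho = 0.85, and r = 0.794 without the 2 libraries farthest from the median). Timd4 went with Retnla (r = 0.875, rho = 0.75, and 0.605), and against Chil3 (r = -0.788, rho = -0.753, and -0.695). Mrc1 went with the pan-macrophage genes (r = 0.864, rho = 0.753, and 0.791). The genes most like each member, by Pearson's r over the same deviations, were Gimap3, H2-Ab1 and C1qc for Mrc1 (0.833, 0.817 and 0.816), Cirbp, Cbr2 and Myl6 for Lyve1 (0.901, 0.883 and 0.88) and Galnt11, Cbr2 and C1qb for Folr2 (0.931, 0.875 and 0.864). For Vsig4 they were Ubald1, Gmpr2 and Drap1 (0.929, 0.897 and 0.846), for Timd4 Rcan2, Cbarp and Itpkb (0.902, 0.897 and 0.884), and for Retnla Jph2, Acta2 and Lmbr1l (0.897, 0.88 and 0.877). Arg1 had the weakest likeness, with Mettl16, Lrig2 and Pdcd2 (0.728, 0.668 and 0.656). These r values are the highest of 10552 genes each and describe these libraries, which share depth and composition.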

How the data were processed

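Bulk RNA-seq was available for 16 knee joint samples, 4 mice in each combination of genotype and time, grouped by the sample titles. The authors mapped reads to mm10 with STAR, used featureCounts for counting and deposited edgeR's TMM-normalized CPM, a signal scaled to library size, with replicates kept apart. Tool versions, annotation, strandedness of counting and the filter behind the 13733 listed genes are not given in the sources used here. All deposited values were whole multiples of 1 read's CPM (100%, within 0.01 reads), which returned 11567073 to 32867818 reads per library. Limits in reads cover counting error only. No label says that mice of a group came from separate litters, so p-values measure the spread between these samples.

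The 13173 genes that reached 1 CPM in 4 or more libraries were tested on log2(CPM + 1) by limma 3.58.1 (eBayes with trend, R 4.3.3), with 4 groups as 1 factor, and p-values were adjusted over all 13173. A gene was called at an unadjusted p under 0.05 and a change of more than 25%, after the rule of the study's methods. For single values every one of the 70 ways to split 8 mice was enumerated (exact permutation, two-sided). Alternatives were pseudocounts of 0.1 and 5, other filters, scalings, fits (edgeR 4.0.16 and voom on recovered reads) and thresholds, and each mouse left out. The members and lists were chosen with earlier results of these data known. All members are named, with Trem2, up to 3 genes of a list with the largest called change, cell markers that moved with a member, and 3 genes most like each member by Pearson's r (mean of 5 CPM or more). Further genes of these lists, such as Il4ra, Stat6, Arg2, Chit1 and Prox1, were named after their values were seen. Positions and exon lengths are from GENCODE M21 on GRCm38 and promoters from RefSeq on GRCm38.p6. The fit was tested on simulated data.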

Additional observations from a re-analysis of the deposited data

Results flagged for a closer look

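1 value stood far from the other mice of its group. Arg1 in Trem2-/- D7 replicate 4 was 7.26 CPM, from 87 reads, beside 1.14, 1.86 and 1.96 CPM in the other 3 mice. Its gap to the nearest mouse was 0.866 of the range of the group, above Dixon's 95% critical value for 4 values. 32 such groups (8 members in 4 groups) were tested, in which chance alone gives about 1.6. Without this mouse the rise of Arg1 by injury in Trem2-/- mice went from 1.01 to 0.60, and the interaction of genotype and injury for Arg1 went from 0.29 to -0.13.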

How the results depend on the processing

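By injury, Mrc1, Folr2, Chil3 and Retnla kept their direction and their call under every alternative in which they were tested, and Retnla is not tested with a mean of at least 5 CPM. With that filter, which removes Timd4, Arg1 and Retnla, 3 members were called in Trem2-/- mice in place of 6. For Trem2-/- against WT at D7, 1 member (Folr2) was called with a pseudocount of 5 and 4 when the fit held the D7 libraries alone, in place of 0. Leaving out each mouse gave 0 to 1 members called at D7 (1, Mrc1, without WT D7 replicate 4), 0 to 1 at D0 (1, Lyve1, without Trem2-/- D0 replicate 3) and 0 to 1 in the interaction (1, Vsig4, without WT D0 replicate 3, and 1, Timd4, without Trem2-/- D0 replicate 3). Ranges over the left-out mice that cross 0 were, at D0, -0.047 to 0.218 for Mrc1, -0.376 to 0.227 for Folr2, -0.234 to 0.229 for Timd4, -0.154 to 0.687 for Chil3 and -0.172 to 0.677 for Retnla. At D7 they were -0.0643 to 0.185 for Lyve1 and -0.0424 to 0.164 for Retnla, for Vsig4 by injury in Trem2-/- mice -0.559 to 0.0146, and in the interaction -0.128 to 0.521 for Arg1 and -0.65 to 0.20 for Retnla. Timd4 at D0 turned from -0.01 to 0.0147 with a pseudocount of 5, 0.0543 with quantile normalization and 0.137 with edgeR, and Retnla in the interaction from -0.28 to 0.16 with voom. Levels relative to other genes depend on the reference. In place of 0, 1 member (Retnla) differed between genotypes at D7 with a pseudocount of 5, 1 (Retnla) against Adgre1 alone and 1 (Lyve1) against the pan-leukocyte genes, and in WT 3 members differed by injury against the latter in place of 6. Against the pan-leukocyte genes, a reference added after the data were seen, the differences by injury turned in sign for several members. In WT they turned to 0.517 for Lyve1, 1.82 for Vsig4, 0.703 for Timd4 and 1.55 for Arg1. In Trem2-/- mice they turned to 1.26 for Lyve1, 1.52 for Vsig4, 1.29 for Timd4 and 0.144 for Retnla. Against the neutrophil genes, also added later, they turned in WT to 1.10 for Lyve1, 2.41 for Vsig4, 1.28 for Timd4, 2.13 for Arg1 and 0.031 for Retnla. In Trem2-/- mice they turned to 1.72, 1.97, 1.74 and 0.597 for Lyve1, Vsig4, Timd4 and Retnla. By construction each relative difference is the member's own difference minus that of its reference. All 6 pan-leukocyte and all 11 neutrophil genes were called lower at D7 in both genotypes. Of the 9 macrophage genes 7 were called higher in WT, and in Trem2-/- mice 4 were higher and 1 lower. The cause of these changes was not tested. The replicate numbers were not used as pairs in the main fit. Deviations of same-numbered WT D0 and WT D7 mice correlated at 0.0458 to 0.406 across genes. Those of Trem2-/- and WT mice at D0 ran from -0.509 to 0.166. Without a reference for such values they cannot decide whether the numbers pair mice. With the replicate number as a block 4 members were called in WT and 5 in Trem2-/- mice, where Timd4 lost its call. At this depth Timd4, Arg1 and Retnla at D7 rest on 1 to 87 reads per library.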
